A study of Sus scrofa domesticus with 4 samples.

Results

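Toll-like receptors are the membrane sensors with which cells recognise microbial molecules, and MYD88 is the adaptor protein that most of them use to signal. The 10 genes described are TLR1 to TLR9 and MYD88, measured in pig myometrium, the muscular wall of the uterus, kept in culture with or without the adipose hormone adiponectin. Members were the array probes whose RefSeq accession belongs to one of these genes. Of 3029 genes that could be named on the array, 9 were members, with 13 of its 43603 probes. TLR4 had 4 probes, TLR3 had 2, and TLR1, TLR2, TLR6, TLR7, TLR8, TLR9 and MYD88 had 1 each. No probe carried the TLR5 accession of the RefSeq table, so TLR5, the receptor for bacterial flagellin, was not analysed here.

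The explants came from the uterine horns of 4 mature Large White x Polish Landrace gilts, 7 to 8 months old and weighing 120 to 130 kg, in early pregnancy (gestation days 15 to 16). After 2 h of preincubation, slices weighing 100 mg received adiponectin (10 µg/ml) or, as the control, nothing, and were harvested 24 h later. All groups shared pregnancy and explant culture, and slices hold every cell type of the muscle layer. Each of 4 Agilent 2-colour arrays held 1 adiponectin-treated and 1 non-treated RNA. Per the labels' dye fields, treated RNA carried Cy5 on arrays 1 and 3 and Cy3 on arrays 2 and 4. The text of the labelling protocol names only treated RNA in Cy5, and the dye fields set the direction of every ratio here. No label ties an array to a gilt, so the p-values reflect array-to-array spread, part of which may be technical.

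The receptors divide by location and ligand. TLR2, with TLR1 or TLR6 as partner, binds bacterial lipopeptides at the cell surface, and TLR4, with the co-receptors LY96 and CD14, binds lipopolysaccharide. TLR3 senses double-stranded RNA, TLR7 and TLR8 single-stranded RNA, and TLR9 unmethylated CpG DNA, all from inside endosomes. MYD88 passes the signal to IRAK kinases, TRAF6 and NF-kappaB, while TLR3 signals without it. The uterus carries these receptors in epithelium, stroma and resident leukocytes, and macrophages are among their main bearers. In a slice, fewer cells of a type and less RNA per cell cannot be told apart.

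Whether a probe was measured above its surroundings was read from the scanner software's flag for a signal well above background, here in each colour channel of each array. TLR1, TLR2, TLR3, TLR4 and TLR6 each had a probe that was measured throughout, and TLR7, TLR8, TLR9 and MYD88 did not. In all, 7 of the 13 member probes, from 5 genes (TLR1, TLR2, TLR3, TLR4 and TLR6), were well above background in both channels on all 4 arrays, where 42% of all probes were. The second TLR3 probe missed this in 1 adiponectin channel, and the dimmest TLR4 probe reached it in 3 adiponectin channels and 2 non-treated channels. TLR8 did not reach it in any channel, as was so for 32.9% of all probes.

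**Figure D1:**
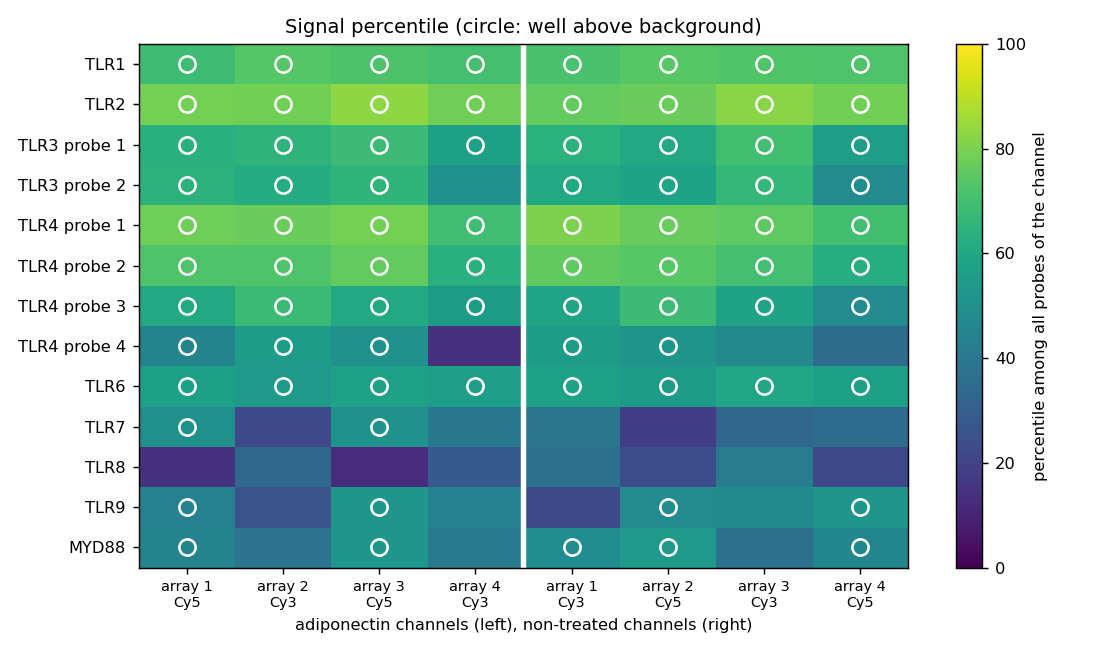
Signal percentile of the 13 member probes (rows, probes of a gene numbered from the brightest) among all probes of the same channel, in the 4 adiponectin channels (left) and the 4 non-treated channels (right), with the dye under each array. White circles mark channels well above background: TLR1, TLR2 and TLR6 have all 8, TLR8 has none, and TLR9 has them in the Cy5 channels only.

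TLR9 was seen in the red channel only, whichever RNA it held. It was well above background in Cy5 on all 4 arrays and in Cy3 on 0, a pattern shared by 1.75% of all probes, so that it counted as measured in 2 adiponectin and 2 non-treated channels. Its processed signal, in the arbitrary units of the scanner, was 32.2, 7.48, 50.3 and 20.6 in the adiponectin channels of arrays 1 to 4, against 7.49, 32.2, 32.5 and 43.1 in the non-treated channels. The Cy5 channel was the brighter on every array, and the treated and non-treated signals overlapped. MYD88 was well above background in 4 Cy5 channels and 1 Cy3 channel.

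TLR7 was well above background in 2 adiponectin channels, those of arrays 1 and 3, and in 0 non-treated channels, and 1.59% of all probes had at least 2 adiponectin channels and 0 non-treated channels at that level. Its processed signal was 49.1, 7.24, 45.3 and 15.3 in the adiponectin channels of arrays 1 to 4 and 19.8, 5.90, 10.4 and 11.2 in the non-treated channels. Both channels that reached the flag were Cy5, while the Cy5 channels that held non-treated RNA, on arrays 2 and 4, did not reach it. After normalisation per channel, which adds an offset to every signal, the mean log2 signal was 7.89 in the adiponectin channels and 7.72 in the non-treated channels. The adiponectin mean was thus 1.13-fold the non-treated mean, with each dye in 2 channels of either condition. The offset shrinks the difference of a probe as dim as TLR7, so 1.13-fold does not measure its size. Its scanner log2 ratios were 1.31, 2.12 and 0.45 on arrays 1, 3 and 4, with a ratio listed at 0 on array 2. Taking the non-treated level at no less than a floor, the lowest signal well above background on each array, gave the same 1.13-fold. This is therefore no lower bound, and the adiponectin channels of arrays 2 and 4 were themselves below the flag. The difference was not tested. TLR8 had signals between 4.97 and 10.5 in the adiponectin channels and between 6.23 and 20.02 in the non-treated channels, all of them below the flag, and no ratio is given for it. TLR7, TLR8 and TLR9 were too dim to be tested.

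**Figure D2:**
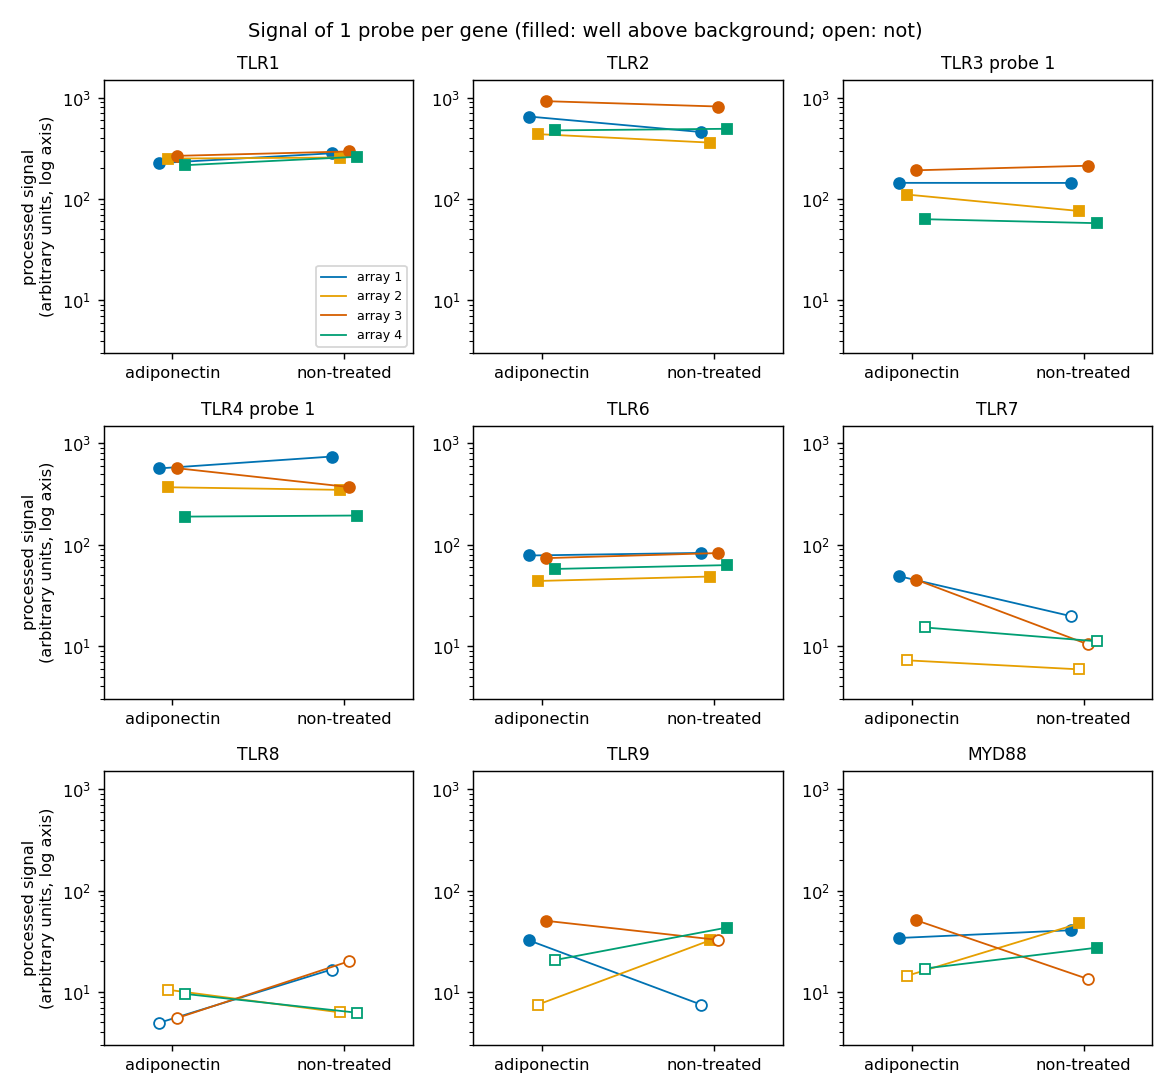
Processed signal (arbitrary units, log axis) of 1 probe for each of the 9 genes in the adiponectin channel (left) and the non-treated channel (right), with a line for each array; filled symbols are well above background. Lines of TLR1 and TLR6 run nearly level, those of TLR9 cross because the Cy5 channel was brighter on each array, and all TLR8 symbols are open.

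The test took probes with a ratio on all 4 arrays and with 3 or 4 channels of 1 condition well above background. This left 22074 probes, among them 10 member probes of 6 genes: TLR1, TLR2, TLR3, TLR4, TLR6 and MYD88. The value given is the log2 ratio of adiponectin over non-treated signal, fitted with a separate dye coefficient for each probe, so that a value above 0 means a higher signal with adiponectin. None of the 10 member probes passed limma at an adjusted p of 0.05, and the call rate over all tested probes was 0%. At an unadjusted p under 0.05 the count was 0 of 10 member probes, where 5.69% of all tested probes were counted; with normexp and loess processing TLR2 had an unadjusted p of 0.0456 (limma adjusted p = 0.959). The members' adjusted p ran from 0.857 to 0.971, and 0.857 was also the smallest over all 22074 probes. Over the 6 genes, 3 ratios were above 0 and 3 below, with a median of -0.03, against -0.02 over the 2131 tested named genes. With 4 arrays, the 95% interval of a member's log2 ratio had a median half-width of 0.41. All 10 member ratios lay within 0.34 of 0, a limit taken from the members themselves, as did 88.1% of all tested probes.

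**Figure D3:**
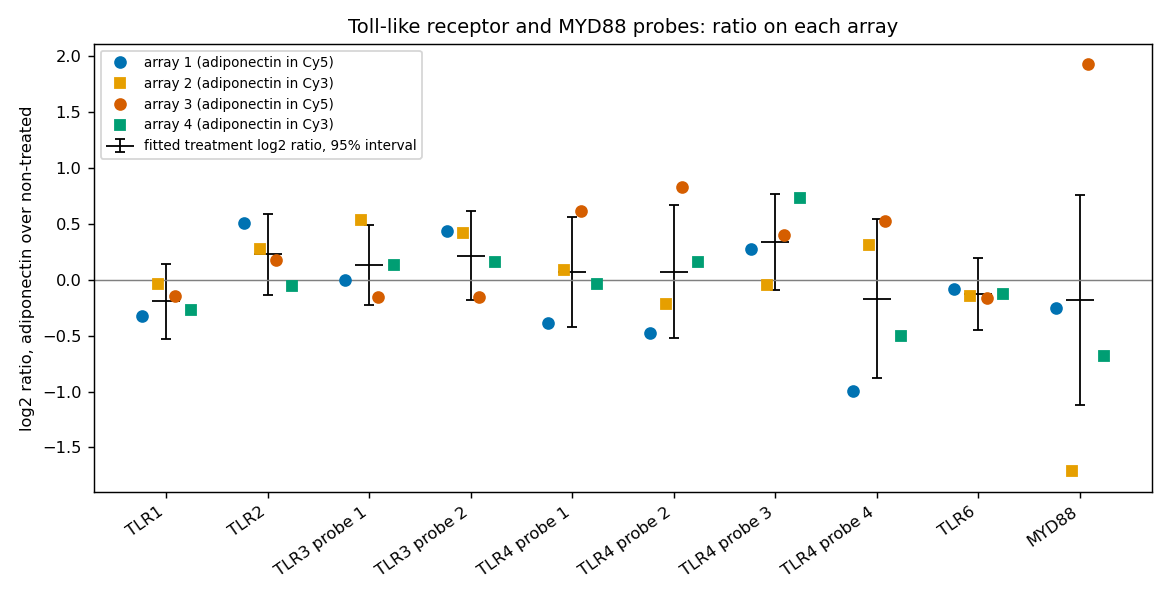
Log2 ratio of adiponectin over non-treated signal for the 10 tested member probes, with a symbol for each array (circles for adiponectin in Cy5, squares for Cy3) and a bar with the fitted ratio and its 95% interval. Every interval includes 0; TLR6 has its 4 arrays closest together and MYD88 farthest apart.

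TLR2, the shared partner in lipopeptide binding, had the highest ratio of the 6 genes. Its processed signal was 650.1, 436.2, 921.5 and 474.7 in the adiponectin channels of arrays 1 to 4 and 457.2, 359.7, 816.3 and 492.1 in the non-treated channels. Adiponectin was the brighter channel on arrays 1, 2 and 3 and the dimmer on array 4, and the signals of the conditions overlapped. The array log2 ratios were 0.51, 0.28, 0.17 and -0.05, and the fitted log2 ratio was 0.23 ± 0.15 (SE, n = 4 arrays), a 1.17-fold higher signal with an interval from 0.91-fold to 1.51-fold (limma adjusted p = 0.867). Without array 1, or without array 2, the fitted log2 ratio of TLR2 was 0.14. TLR2 lay between percentiles 76.0 and 82.1 of the non-treated channels.

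TLR1 and TLR6, the alternative partners of TLR2, had negative ratios on all 4 arrays. TLR1 had signals of 226.0, 250.3, 266.1 and 215.4 in the adiponectin channels and 282.1, 256.2, 294.2 and 260.5 in the non-treated channels. Each adiponectin signal was below that of its own array, and on array 2 by 0.03 on the log2 scale only. The fitted log2 ratio of TLR1 was -0.19 ± 0.14 (SE, n = 4 arrays), with an interval from -0.53 to 0.15 (limma adjusted p = 0.868), and with normexp and loess processing it was -0.11. TLR6 had signals of 78.3, 43.9, 73.8 and 57.7 in the adiponectin channels and 83.1, 48.6, 82.8 and 63.0 in the non-treated channels. Its array log2 ratios of -0.09, -0.15, -0.17 and -0.13 spanned 0.08, where the median span over tested probes was 0.75, and 0.195% of tested probes had a span as narrow. The fitted log2 ratio was -0.13 ± 0.13 (SE, n = 4 arrays), with an interval from -0.45 to 0.19 (limma adjusted p = 0.900), and with normexp and loess processing it was -0.05. A ratio below 0 on all 4 arrays was found for these 2 of the 10 member probes and for 6.23% of all tested probes, and a ratio above 0 on all 4 arrays for 0 of the 10 and for 6.37% of all. TLR1 and TLR6 are neighbouring genes in the RefSeq table, between TLR10 and FAM114A1, and their products are close relatives. The probe sequences were not used here, so whether either probe also binds the other transcript was not tested.

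TLR4, the lipopolysaccharide receptor, was measured by 4 probes of the same accession, and these gave unlike values. The brightest had signals of 566.7, 369.2, 569.5 and 189.5 in the adiponectin channels and 741.2, 348.0, 371.2 and 194.2 in the non-treated channels. The order of the conditions changed between arrays, with adiponectin dimmer on array 1 and brighter on array 3. Its array log2 ratios were -0.39, 0.09, 0.62 and -0.04, and the fitted log2 ratio was 0.07 ± 0.20 (SE, n = 4 arrays), with an interval from -0.42 to 0.56 (limma adjusted p = 0.968). The second probe had the same sign on arrays 1 and 3 only, at -0.48, -0.22, 0.83 and 0.16 on arrays 1 to 4, and had a fitted log2 ratio of 0.07 ± 0.24.

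The third TLR4 probe stood at 0.27, -0.05, 0.40 and 0.73 on arrays 1 to 4 and had a fitted log2 ratio of 0.34 ± 0.17, the highest of all member probes, which was 0.15 without array 4 and 0.53 without array 2. The fourth and dimmest probe entered the test through its adiponectin channels alone. It stood at -0.997, 0.31, 0.53 and -0.51, with a fitted log2 ratio of -0.17 ± 0.29. The probes thus shared a sign on array 3 only. The root mean square difference over the 4 array ratios was 0.22 between the 2 brightest probes, and it reached 0.91 between the third and the fourth. The third probe was also brightest on array 2 in the non-treated channels (150.2, against 91.6, 75.3 and 32.0 on arrays 1, 3 and 4), whereas the brightest probe was highest on array 1. With normexp and loess processing the 4 fitted log2 ratios lay closer together, at 0.13, 0.09, 0.07 and 0.03. The RefSeq table lists 3 mRNA accessions and 1 noncoding accession for TLR4, and where each probe lies in these transcripts is not given in the sources used here. Without array 3 the fitted log2 ratios of the 2 brightest probes were -0.18 and -0.25.

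TLR3, the sensor of double-stranded RNA, was measured by 2 probes with the same signs on all 4 arrays. The brighter had signals of 144.1, 110.4, 191.7 and 63.1 in the adiponectin channels and 143.9, 76.0, 212.7 and 57.7 in the non-treated channels. Its array log2 ratios were 0.00, 0.54, -0.15 and 0.13, and the fitted log2 ratio was 0.13 ± 0.14 (SE, n = 4 arrays; limma adjusted p = 0.910). The other probe stood at 0.44, 0.42, -0.16 and 0.16 on arrays 1 to 4, with a fitted log2 ratio of 0.22 ± 0.16 (limma adjusted p = 0.878). They differed most on array 1, and the root mean square difference over the 4 arrays was 0.23. Both probes were dimmest on array 4 in either condition, although arrays were not scaled to each other. With normexp and loess processing the fitted log2 ratios of both were 0.07, and leaving out arrays moved them further. The brighter probe was at 0.03 without array 2 and at 0.23 without array 4, and the other at 0.07 without array 1 and at 0.36 without array 3.

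MYD88, the adaptor, had the widest spread of array ratios among the tested members. Its signals were 34.0, 14.4, 51.0 and 17.0 in the adiponectin channels and 40.6, 47.4, 13.4 and 27.3 in the non-treated channels. These are dim values, and adiponectin was brighter than non-treated on array 3 alone. MYD88 was well above background in 2 adiponectin channels and 3 non-treated channels, so it entered the test through its non-treated channels alone. The array log2 ratios of -0.25, -1.71, 1.93 and -0.68 spanned 3.64, and 0.621% of tested probes had a span as wide. The fit placed 1.02 on the log2 scale in the dye coefficient, toward Cy5, and left a treatment log2 ratio of -0.18 ± 0.38 (SE, n = 4 arrays), with an interval from -1.12 to 0.76 (limma adjusted p = 0.952). Leaving out 1 array in turn moved the fitted log2 ratio between -0.73 and 0.36. With normexp and loess processing it was -0.01.

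The genes with array ratios nearest to those of the 3 widest-ranging genes were listed by the root mean square difference over the 4 arrays. Those for MYD88 were AGPAT1 (0.44), PLBD1 (0.44) and GJA4 (0.46). Those for the brightest TLR4 probe were nearer, IL10RB, a subunit of the interleukin 10 receptor, at 0.07, the quinone reductase NQO1 at 0.09 and IDH2 at 0.11. For the brighter TLR3 probe they were TNNI3, ALG10 and UFL1, each at 0.11. These are likenesses over 4 ratios of the same arrays, chosen among 2131 genes.

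Genes around the receptors were read from 9 lists of co-receptors, adaptors, downstream kinases and factors, and targets. Over 59 tested genes of these lists, 0 passed limma, with adjusted p from 0.857 to 0.998, and the median log2 ratio was 0.01. Their values are fitted log2 ratios of adiponectin over non-treated signal, ± SE over 4 arrays. At an unadjusted p under 0.05 there were 2 higher and 3 lower genes, where over all tested probes 3.78% were higher and 1.91% lower.

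The tested co-receptors and chaperones were 6, with 5 ratios above 0 and a median of 0.04. CNPY3, a chaperone that brings Toll-like receptors to their place in the cell, stood at 0.22 ± 0.15, and LY96, the lipopolysaccharide-binding partner of TLR4, at -0.11 ± 0.15. Of the 5 adaptors and proximal kinases, 3 were above 0, with a median of 0.12. TICAM2, the adaptor that links TLR4 to the interferon branch, had the lowest ratio of these lists at -0.52 ± 0.17, with -0.03, -0.55, -0.22 and -1.28 on arrays 1 to 4, and did not pass (limma adjusted p = 0.857). TRAF6, the ubiquitin ligase that acts after MYD88, stood at 0.26 ± 0.13, with all 4 arrays between 0.18 and 0.43.

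Among the 3 tested brakes on signalling (median 0.14), TNFAIP3, the A20 enzyme that ends NF-kappaB signalling, stood at 0.34 ± 0.14, with -0.19, 0.77, -0.37 and 1.15 on arrays 1 to 4. NFKBIA, the inhibitor that holds NF-kappaB in the cytoplasm, stood at 0.14 ± 0.15. For both genes the ratios were negative with adiponectin in Cy5 and positive with it in Cy3. All 5 tested NF-kappaB and IKK subunits were below 0, with a median of -0.25, where the median over all tested named genes was -0.02. Their array medians were uneven, at -0.47, -0.30, -0.06 and 0.09 on arrays 1 to 4. IKBKB, at -0.16 ± 0.30, was well above background in 3 adiponectin and 2 non-treated channels. It entered the test through its adiponectin channels alone, and NFKB1 was at -0.08 ± 0.14. CHUK, the IKK alpha kinase, stood at -0.25 ± 0.15 and IKBKG, the regulatory IKK subunit, at -0.27 ± 0.17. None passed (limma adjusted p of at least 0.864 for these 2).

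The 9 genes of the interferon regulatory factor arm had 4 ratios above 0 and a median of -0.11, with IRF1 at -0.39 ± 0.17 and the interferon receptor subunit IFNAR2 at 0.29 ± 0.16. In the MAP kinase arm 2 genes were tested (median -0.14): JUN stood at -0.28 ± 0.25 and FOS at -0.01 ± 0.13. The interleukin 1 and interleukin 18 system, whose receptors also signal through MYD88, had 4 tested genes and a median of 0.46, and this median was far from even across arrays, at -0.65, 0.04, 1.39 and 0.39 on arrays 1 to 4. IL1A stood at 0.78 ± 0.44, and CASP1, the protease that activates IL1B, at 0.35 ± 0.15. Neither passed. CASP1 was well above background in 3 adiponectin channels and 1 non-treated channel, so it entered the test, and the list median, through its adiponectin channels alone. Its array log2 ratios were 1.13, -0.10, 0.97 and -0.60, positive with adiponectin in Cy5 and negative with it in Cy3.

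The 20 tested target cytokines and effectors had 11 ratios above 0 and a median of 0.01. CXCL8, the neutrophil attractant, had the highest ratio at 0.90 ± 0.27, with 0.31, 0.33, 1.54 and 1.41 on arrays 1 to 4, IL15 stood at -0.46 ± 0.18, and the adhesion molecule VCAM1, named for its unadjusted p, at -0.42 ± 0.17. Of the 5 tested cytosolic pattern receptors, which sense microbes beside the Toll-like receptors, 3 were above 0 (median 0.09). IFIH1, a cytosolic sensor of double-stranded RNA, stood at 0.40 ± 0.15, and TMEM173, the adaptor STING, at -0.23 ± 0.15. For CXCL8, IL15, VCAM1 and IFIH1 the unadjusted p was under 0.05, and the limma adjusted p was 0.857 for each. IL15 and IFIH1 had 2 tested probes each, and the other probe was nearer to 0, at -0.18 for IL15 and 0.19 for IFIH1. Other named genes also had a second tested probe, among them NFKBIA at 0.002, CHUK at -0.15 and IKBKG at -0.05. For IRF1 the second probe was farther from 0, at -0.51.

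**Figure D4:**
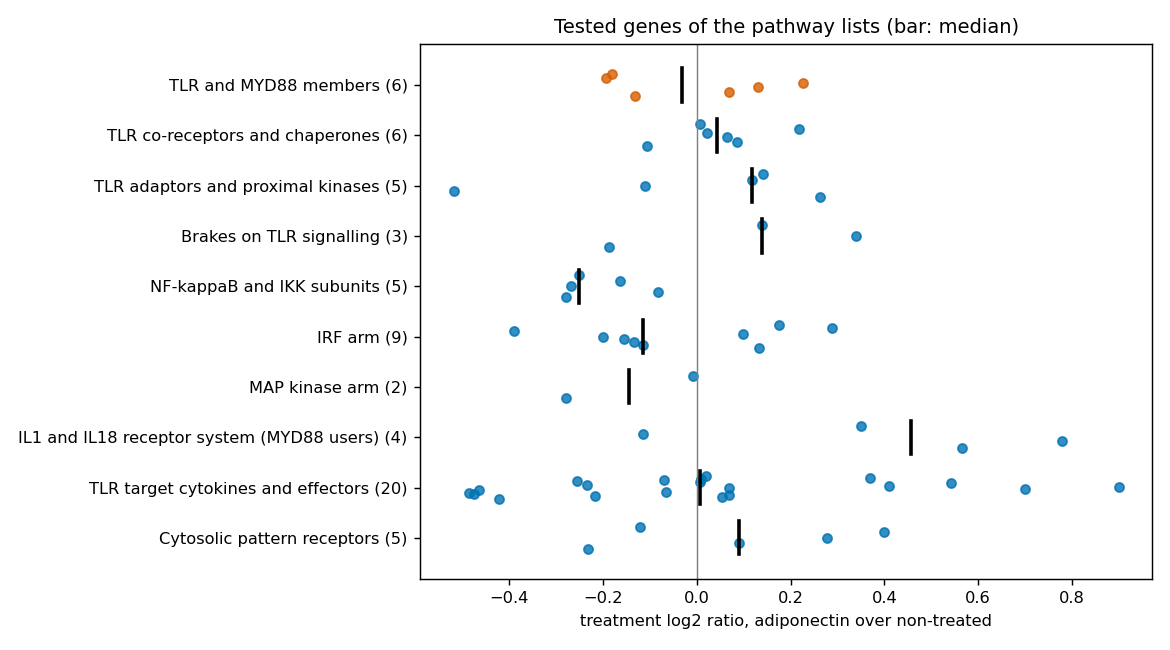
Treatment log2 ratio (adiponectin over non-treated) of each tested gene, by list, with the number of tested genes in brackets and a bar at the list median. The 6 tested members (orange, top row) lie between -0.19 and 0.23, and the target cytokines and effectors spread from -0.48 to 0.90.

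Markers of the cell types in a uterine slice were read on the same arrays. All 7 smooth muscle markers with a probe were well above background in every channel, with summed signals between 314105 and 536397 in the adiponectin channels and between 285675 and 542781 in the non-treated channels. Their median log2 ratio was -0.08, with 3 of 7 above 0 and the 2 genes of smallest p, MYL9 and TPM2, at -0.26 and -0.16, and the array medians were -0.66, -0.15, 0.58 and -0.25, while the brightest TLR4 probe stood at -0.39, 0.09, 0.62 and -0.04. Macrophage markers, from cells that carry many of the receptors, differed between arrays. Their 13 genes summed to between 2196 and 9334 in the adiponectin channels and between 2073 and 5655 in the non-treated channels. FCGR1A and SIGLEC1 were well above background in no channel. All 9 tested macrophage markers had ratios above 0, with a median of 0.74, where the median over all tested probes was -0.002. Their medians were 0.50, -0.23, 2.22 and 0.63 on arrays 1 to 4. CD14, the TLR4 co-receptor, was the lowest at 0.006 ± 0.17, with -0.28, -0.23, 0.07 and 0.46 on arrays 1 to 4. The other tested CD14 probe was at 0.18. VSIG4 stood at 1.20 ± 0.31 and CD163 at 1.09 ± 0.34, and neither passed (limma adjusted p = 0.857). On array 3, where the macrophage median was highest, all 4 TLR4 probes were between 0.40 and 0.83 and TLR2 was at 0.17. On array 2, where that median was below 0, TLR2 was at 0.28. The part of smooth muscle and macrophages in the members' ratios was not tested.

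Of the other cell types, neutrophil markers had a median of -0.19 over 5 tested genes, 2 of them above 0, and the genes of smallest p were PGLYRP1 at -0.54 and S100A9 at -0.32, while FCGR3A stood at 0.47. Lymphocyte markers had a median of 0.33 over 4, 3 of them above 0, and the median was 0.22 without IL7R. CD3G stood at 0.44, and CD3D, CD8A and MS4A1 were well above background in no channel. IL7R was well above background in 3 adiponectin channels and in 0 non-treated channels. After the normalisation per channel with its offset, its mean over all 4 adiponectin channels was 1.29-fold the non-treated level taken at its floor. That value is no lower bound, because 1 of these adiponectin channels was itself below the flag. The offset also shrinks the difference of a probe this dim. IL7R entered the test through its adiponectin channels alone and did not pass. The dendritic cell list had 1 tested gene, XCR1, at -0.14. Endothelium markers had a median of 0.14 over 5, 3 of them above 0, with ENG at -0.45 and PECAM1 at 0.35. Endometrial epithelium markers had a median of -0.01 over 5, 2 of them above 0, KRT8 at 0.43 and EPCAM at 0.53, with CLDN3 lowest at -0.69. The 16 tested EPCAM probes ran from 0.03 to 0.60, the 3 of PECAM1 from 0.03 to 0.35, and the other KRT8 probe was at 0.16. Epithelial array medians of -0.71, 1.24, -0.95 and 0.69 were negative with adiponectin in Cy5 and positive with it in Cy3. The summed epithelial signals were between 335 and 6087 in the adiponectin channels and between 439 and 2607 in the non-treated channels. Stroma markers had a median of -0.11 over 4, all below 0, with DCN at -0.13 and LUM at -0.18. Their array medians were 0.31, -0.20, -0.20 and -0.03 on arrays 1 to 4. None of these markers passed limma.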

How the data were processed

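The authors' deposited scanner files, made with Agilent Feature Extraction 10.7.3.1 per the file headers, hold spot and background intensity and processed signal intensity per channel, background-subtracted and dye-normalised, and a log10 ratio of Cy5 over Cy3. Flags for signals well above background, for outliers and for saturation are given in the same files as other, 0 or 1, values of the authors' software. The deposited series table holds log2 ratios. Its slope on the scanner ratio of bright probes was 1.00 on arrays 1 and 3 and -1.00 on arrays 2 and 4, so its scale and direction, adiponectin over non-treated, followed the dye fields, and its column medians were -0.10, 0.13, -0.14 and 0.16. Whether dim values in it were treated otherwise is not given in the sources used here. Aligners and genome builds play no part, and no coordinates are given.

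Scanner ratios were turned to log2 and by dye. The ratio was exactly 0 for 18.1% to 28.9% of spots, and such ratios and outlier-marked spots were left out. Between 47.0% and 63.1% of spots were well above background in the adiponectin channels and between 46.1% and 56.5% in the non-treated channels. The 1417 control spots were left out, and spots of a probe were averaged. Names came from matching RefSeq accessions to a table of assembly Sscrofa11.1 (6700 of 43603 probes, 3029 genes). Of 22288 bright probes, 214 lacked a value on some array. Slide 1 (scan 1) carried arrays 1 to 3, and slide 2 (scan 2) carried array 4. limma 3.58.1 in R 4.3.3 (lmFit, eBayes, two-sided, Benjamini-Hochberg over all tested probes) fitted treatment and dye coefficients. The fit was also run on data simulated with its own spread and independent noise. Such data cannot show how it handles dependence between arrays or the noise of dim signals. Values after ± are moderated SEs, and a gene with several tested probes is represented by its brightest. The alternatives were normexp (offset 50) with loess, median centring, the series table, no dye coefficient, other filters, probe means, slide, and each array left out. The offset draws ratios of dim probes, and their SEs, toward 0. Signals of different probes serve to pick and order probes, not to compare amounts of RNA between genes. The members, gene lists and the rule for named genes (all members, the 2 smallest p per list, and the 3 nearest genes) were chosen with earlier results of these data known.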

Additional observations from a re-analysis of the deposited data

Results flagged for a closer look

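In 78 sets of 4 array values, 1 value lay far from the other 3 in 3 sets, where chance gives about 3.9. The share of the whole range taken by the gap was 0.833 for the TLR9 signal in the non-treated channels, 0.936 for the PGLYRP1 ratio and 0.860 for the CD3G ratio, each above Dixon's critical value; chance does this to about 1 set in 20. The TLR9 signal of 7.49 belonged to array 1, the other 3 arrays having 32.2 to 43.1, and its array 1 and array 3 non-treated channels were both Cy3. PGLYRP1, a neutrophil granule protein, had -1.24 on array 4, with the other 3 from -0.34 to -0.28. CD3G, a subunit of the T-cell receptor complex, had 2.29 on array 2, with the other 3 from -0.33 to 0.04.

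TLR7, which was not tested, was well above background in 2 adiponectin channels and 0 non-treated channels, a count that 1.59% of all probes reached or passed. Both were Cy5 channels, and its ratios were 1.31 on array 1, 2.12 on array 3 and 0.45 on array 4, with a ratio listed at 0 on array 2.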

How the results depend on the processing

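No member probe passed under any alternative, and over all probes the count past the adjusted threshold was 0 in each except without array 3, where 12 probes were higher, none of them a member. Leaving out each array in turn gave 0 to 12 higher and 0 lower probes, and 432 to 1299 higher and 265 to 1089 lower at an unadjusted p under 0.05, where 834 and 422 were counted over all arrays. Slide 1 alone, or slide as a block, gives the same estimates as leaving out array 4, with 432 higher and 265 lower. Of 103 member values under other settings 98 kept their sign. The series table, the dropped dye coefficient and the other filters leave a member's fitted ratio as it was. Those signs could therefore not change, and the count is no measure of how stable the ratios are. The second TLR4 probe was at -0.021 with slide 1 alone or slide as a block, and the fourth was at 0.036 with either and at 0.031 with normexp and loess. Over the omissions of 1 array, the brightest TLR4 probe ranged from -0.18 to 0.32, the second from -0.25 to 0.40, the fourth from -0.55 to 0.21 and MYD88 from -0.73 to 0.36, and the other 6 member probes kept their sign. Unadjusted p fell under 0.05 for MYD88 (0.0269) and the fourth TLR4 probe (0.0484) without array 3, and for the third TLR4 probe (0.0427) without array 2. The cause of these changes was not tested. With positive and significant signal in place of well above background, 9 member probes, against 7, were detected in both channels on all arrays. TLR7, TLR8 and TLR9 lack enough bright channels, and without the filter on dim probes TLR9 had a log2 ratio of -0.11 (limma adjusted p = 0.978).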
